A study of Bos taurus with 12 samples.

Results

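The genes described here encode the machinery that carries new secretory and membrane proteins into the endoplasmic reticulum (ER) and attaches N-glycans to them. They are the subunits of the signal recognition particle (SRP), its receptor, the SEC61 channel with its partners, the translocon-associated protein complex (TRAP), the signal peptidase and the oligosaccharyltransferase (OST). Of 32 genes listed by symbol, 31 were matched to 1 of the 30336 gene IDs counted, and all 31 passed the filter on low counts. SRPRB, the membrane-anchored subunit of the SRP receptor, has no value here because its symbol was not matched to an ID.

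Secretory proteins begin with a hydrophobic signal peptide. SRP binds this peptide as it leaves the ribosome and brings the ribosome to its receptor on the ER membrane, the chain then passes through the SEC61 channel, signal peptidase removes the peptide, and OST transfers a preassembled oligosaccharide from dolichol to asparagine residues of the chain. The liver makes albumin, which carries no N-glycan, and most other plasma proteins, many of which do, so hepatocytes depend heavily on this route.

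Liver was taken by puncture biopsy from 12 Holstein heifer calves at 4 d of age. The dams of 6 calves received the control diet (CON), and the dams of the other 6 received the same diet with ethyl-cellulose rumen-protected methionine (MET) over the last 28 d before calving. All calves were fed and managed alike after birth, and each library came from a separate animal according to the labels. The comparison asks which transcripts in the liver of the newborn differed with the methionine supply of the dam.

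The deposited values are counts of reads per gene, between 8277789 and 10397604 per library, at which 3 reads correspond to 0.289 to 0.362 CPM of the raw total. The CPM of genes below, their reads relative to the library total, are after TMM scaling. The libraries of CON replicates 1 and 4 were almost identical, with a chi-square of 1.33 per gene where counting error alone gives about 1, as were those of MET replicates 1 and 3, with 1.24, whereas the other 64 pairs of libraries gave 25.1 to 132.9. Each of these pairs was therefore counted as 1 sample, which leaves 5 samples per diet, and means and SD below are over those 10 samples. Fits over the 12 libraries, the number in the study's design, are given first, and the fit over 10 samples, in which reads of a pair were summed, is given beside them. According to the labels, the 6 CON libraries carried one first sequencing index and the 6 MET libraries another, so index and diet cannot be told apart.

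Expression per length differed widely among the 31 genes. Levels in CON, as CPM per kilobase of exon, were lowest for SPCS3, a noncatalytic subunit of signal peptidase (8.16 ± 1.44, SD, n = 5), and highest for SSR4, the delta subunit of TRAP (310.1 ± 94.0). Within OST, KRTCAP2 (105.8 ± 9.98), OST4 (96.1 ± 5.80), RPN2 (90.5 ± 19.2) and OSTC (84.0 ± 20.8) were followed by RPN1 (65.6 ± 13.0), DAD1 (65.5 ± 8.53), DDOST (59.8 ± 6.90) and STT3A (59.0 ± 14.2). Neighbours in that order differed by less than the larger of their SD. STT3B, the other catalytic subunit, was lower per kilobase at 20.5 ± 5.65.

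Most of the 31 genes had more reads in MET than in CON. In the fit over 12 libraries, 28 had a positive log2 fold change, compared with 49.6% of the 13212 genes tested, and the median was 0.35, compared with −0.003 over all tested genes. Of the 31, 5 were called higher by the quasi-likelihood test of edgeR at an FDR (Benjamini-Hochberg) of at most 0.10, where the share of all tested genes called higher was 2.09%. They were SRP14, SEC11C, RPN1, DAD1 and KRTCAP2. None was called lower, where the share of all genes was 2.32%. At an unadjusted p of at most 0.05, 16 of the 31 were higher (10.2% of all tested genes) and 1, SEC62, was lower (10.4%).

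None of these calls held in edgeR when the near-identical libraries were counted once. Over 10 samples it called no gene of the 13242 tested, and the FDR of the 31 genes ran from 0.174 to 0.920. At an unadjusted p of at most 0.05, 15 of the 31 were higher (7.83% of all tested genes) and 1, SEC62, was lower (8.52%), while DESeq2 on the same 10 samples called 12 higher at an FDR of at most 0.10 (2.31%) and 1 lower, again SEC62 (2.51%). DESeq2 called 639 genes in the whole table, and on simulated data it called more unchanged genes than edgeR did. The fold changes themselves were close in both fits, with a median of 0.39 over 10 samples. All 5 MET samples lay above all 5 CON samples for 2 of the 31 genes, SRP14 and KRTCAP2, compared with 1.94% of all genes, and below them for 1, SEC62, compared with 1.77%.

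**Figure D1:**
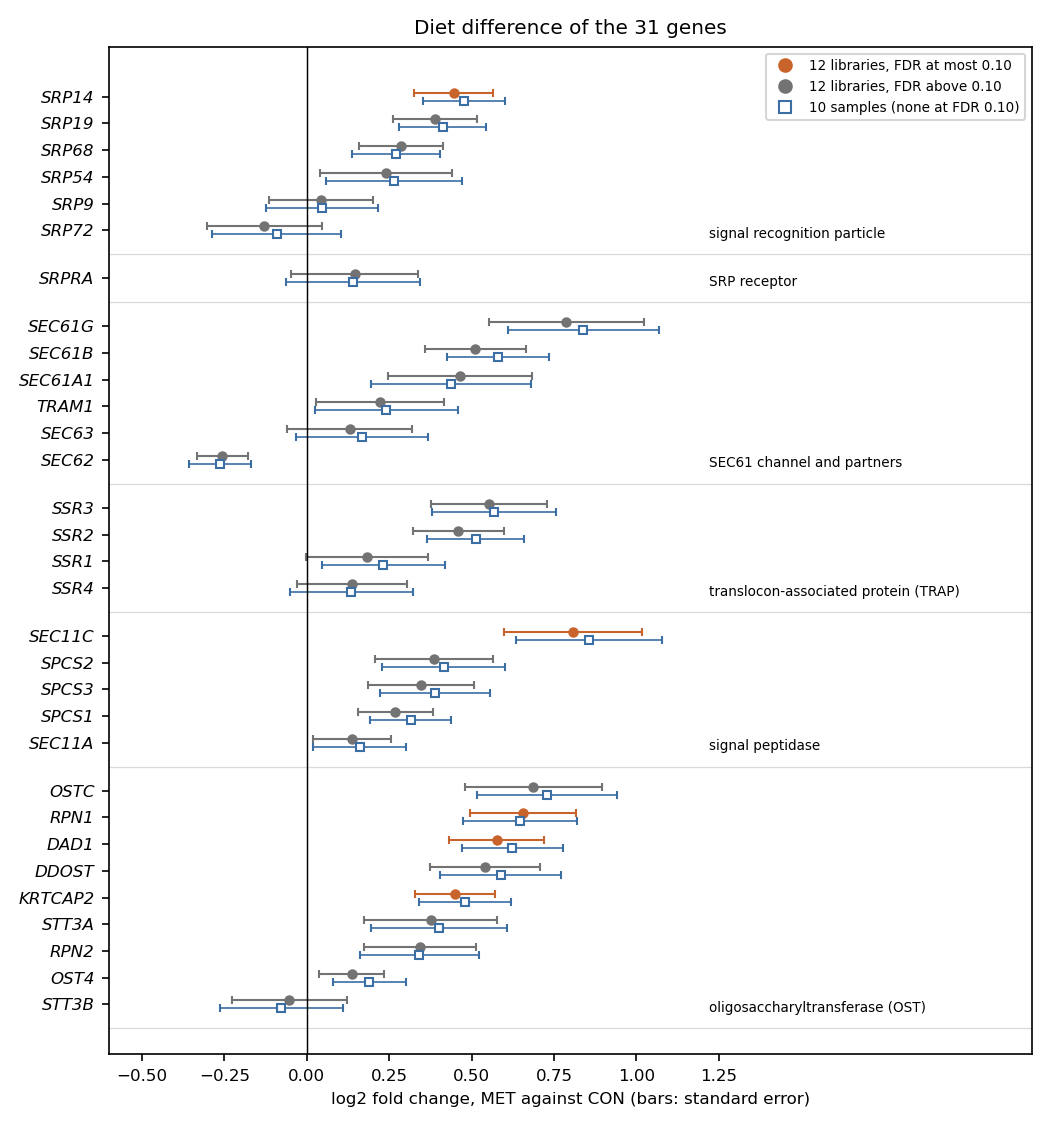
Log2 fold change of MET against CON (horizontal axis) for each of the 31 genes, grouped by complex. Circles show the fit over 12 libraries, orange where the FDR was at most 0.10, and open squares the fit over 10 samples, with bars of 1 standard error. SEC61G and SEC11C lie farthest to the right at 0.79 and 0.81, and SEC62 at −0.26, SRP72 at −0.13 and STT3B at −0.05 lie left of 0.

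The signal recognition particle is an RNA with 6 proteins, all of which were measured. SRP14 (Entrez 512792, chromosome 10, 35805063 to 35808329, minus strand, UMD 3.1.1), which forms with SRP9 the Alu-domain dimer that slows elongation, stood in CON at 31.1 CPM in replicates 1 and 4 together and at 36.2, 36.1, 35.0 and 33.8 CPM in replicates 2, 3, 5 and 6. In MET it stood at 37.1 CPM in replicates 1 and 3 together and at 45.5, 59.1, 50.1 and 48.2 CPM in replicates 2, 4, 5 and 6. The diets did not overlap over the 10 samples, although the lowest MET sample was only just above the highest CON sample. Among the 12 libraries they did overlap, since MET replicate 3 alone (35.95 CPM) was below CON replicates 2 (36.20 CPM) and 3 (36.14 CPM). SRP14 was 1.36-fold higher in MET (log2 0.45 ± 0.12, SE, FDR = 0.081 by edgeR over 12 libraries, and 0.175 over 10 samples).

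The remaining SRP proteins did not pass the FDR threshold in edgeR, and DESeq2 over 10 samples called SRP19 beside SRP14 (FDR = 0.097). SRP19, which helps to assemble the particle on its RNA, had the next lowest FDR, 0.120, with 33.3 ± 4.38 CPM in CON and 44.4 ± 6.06 CPM in MET. SRP54, the GTPase that holds the signal peptide, had a log2 fold change of 0.24 ± 0.20, and SRP68 one of 0.29 ± 0.13. SRP9, the partner of SRP14 in the Alu domain, had 22.2 ± 3.19 CPM in CON and 23.0 ± 5.67 CPM in MET, a log2 fold change of 0.04 ± 0.16. SRP72, which binds SRP68, was the 1 SRP gene with a negative value (−0.13 ± 0.17). The difference between the fold changes of SRP9 and SRP14 was not tested. Summed over the 6 genes, SRP reads amounted to 225.0 ± 35.8 CPM in CON and 270.0 ± 44.7 CPM in MET.

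SRPRA, the receptor subunit that docks with SRP54, had 103.2 ± 21.7 CPM in CON and 113.7 ± 32.1 CPM in MET. Its log2 fold change, 0.15 ± 0.19, was smaller than its standard error.

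The SEC61 channel has 3 subunits. SEC61A1 forms the pore, and SEC61B and SEC61G are small tail-anchored subunits beside it. SEC61G had the larger difference, from 57.1 ± 13.1 CPM in CON to 102.2 ± 31.1 CPM in MET (log2 0.79 ± 0.23), and SEC61B went from 91.0 ± 8.47 to 136.0 ± 27.7 CPM (log2 0.51 ± 0.15). Both had an FDR of 0.101 by edgeR over 12 libraries, just outside the threshold, and both were called by DESeq2 over 10 samples (FDR = 0.029 and 0.032 for SEC61B and SEC61G), and in both 4 of 5 MET samples lay above every CON sample. SEC61A1 varied more among calves of one diet, with 91.3 ± 32.9 CPM in CON and 123.7 ± 32.6 CPM in MET (log2 0.46 ± 0.22, FDR = 0.249).

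Among the partners of the channel, SEC62 moved the other way from most of the 31 genes. SEC62 (Entrez 538938, chromosome 1, 98177773 to 98211345, minus strand), which serves the import of short and weakly hydrophobic precursors together with SEC63, stood in CON at 140.1, 146.6, 147.1, 143.4 and 135.5 CPM, in the sample order given for SRP14. In MET it stood at 119.9, 123.5, 119.9, 114.7 and 115.9 CPM. No MET sample reached the lowest CON sample, and the SD within a diet was small, 4.82 CPM around a mean of 142.5 in CON and 3.54 around 118.8 in MET. Its log2 fold change was −0.26 ± 0.08, with an FDR of 0.103 by edgeR over 12 libraries and 0.218 over 10 samples. DESeq2 over 10 samples gave an FDR of 0.0148, whereas limma-voom called it over 12 libraries (FDR = 0.096) and did not over 10 samples (FDR = 0.214). SEC63, its membrane partner and a J-domain cochaperone, had 65.8 ± 19.0 CPM in CON and 73.9 ± 14.7 CPM in MET, and TRAM1, a membrane protein beside the channel, had 143.4 ± 31.6 and 169.7 ± 57.1 CPM. Neither passed the threshold (FDR = 0.739 and 0.547 by edgeR).

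TRAP is a complex of 4 subunits that sits beside SEC61 and aids the entry of some chains. SSR3, its gamma subunit, had 118.0 ± 26.7 CPM in CON and 174.9 ± 38.0 CPM in MET (log2 0.55 ± 0.18, FDR = 0.112), and SSR2, its beta subunit, had 137.0 ± 17.8 and 195.4 ± 33.5 CPM (log2 0.46 ± 0.14, FDR = 0.101). SSR1 and SSR4, the alpha and delta subunits, had log2 fold changes of 0.18 ± 0.19 and 0.14 ± 0.17. All 4 values were positive and none passed the threshold in edgeR over 12 libraries, while DESeq2 over 10 samples called SSR2 (FDR = 0.040) and SSR3 (FDR = 0.087) higher. SSR4 in CON included 1 sample, replicate 2, at 340.3 CPM, above all other CON and MET samples, and without it the log2 fold change was 0.32 over 11 libraries. Without MET replicates 1 and 3, the lowest MET sample for SSR1, that gene had a log2 fold change of 0.36 over the remaining samples (FDR = 0.267 by edgeR).

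Signal peptidase consists of a catalytic subunit, SEC11A or SEC11C, with SPCS1, SPCS2 and SPCS3. SEC11C (Entrez 504842, chromosome 24, 58659025 to 58670239, plus strand) had the largest log2 fold change of the 31 genes in both fits. It stood in CON at 71.1, 68.9, 111.4, 105.6 and 68.5 CPM and in MET at 99.0, 160.2, 122.4, 197.0 and 192.0 CPM. CON replicates 3 and 5 were well above the other 3 CON samples, and 4 of 5 MET samples exceeded every CON sample, the exception being replicates 1 and 3. SEC11C was 1.75-fold higher in MET (log2 0.81 ± 0.21, FDR = 0.076 by edgeR over 12 libraries and 0.175 over 10 samples). SEC11A, its paralog, had 65.3 ± 7.51 CPM in CON and 73.0 ± 13.0 CPM in MET (log2 0.14 ± 0.12). The noncatalytic subunits had log2 fold changes of 0.27 for SPCS1, 0.39 for SPCS2 and 0.35 for SPCS3, with an FDR from 0.202 to 0.243.

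Of the 6 groups, OST held the most genes called by edgeR over 12 libraries, 3 of its 9 (2.09% of all tested genes), with a median log2 fold change of 0.45, and over 10 samples edgeR called none of the 9, with 5 higher at an unadjusted p of at most 0.05 (7.83% of all). RPN1 (Entrez 507939, chromosome 22, 59952594 to 59965987, plus strand), or ribophorin I, which presents some substrates to the catalytic subunit, stood in CON at 108.6, 131.4, 186.8, 152.6 and 144.5 CPM. The MET samples stood at 179.4, 188.9, 275.1, 258.5 and 231.4 CPM. Only CON replicate 3 reached into the MET range. The log2 fold change of RPN1 was 0.66 ± 0.16, or 1.58-fold, with an FDR of 0.070 by edgeR over 12 libraries and 0.175 over 10 samples.

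DAD1 (Entrez 614538, chromosome 10, 22073298 to 22095132, plus strand) is a small subunit that holds the complex together and whose loss leads to apoptosis. Its CON samples stood at 84.0, 85.5, 107.9, 101.5 and 80.8 CPM, and its MET samples at 102.0, 128.5, 153.8, 167.4 and 156.9 CPM. MET replicates 1 and 3 lay among the CON samples and the other 4 MET samples lay above all of them. DAD1 was 1.49-fold higher in MET (log2 0.58 ± 0.14, FDR = 0.072 by edgeR over 12 libraries and 0.174 over 10 samples).

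KRTCAP2 (Entrez 540389, chromosome 3, 15498952 to 15501492, plus strand) tethers the STT3A form of OST to the SEC61 channel. It stood at 49.0, 54.7, 42.5, 52.4 and 47.8 CPM in CON and at 59.3, 62.6, 57.7, 74.1 and 90.4 CPM in MET. The diets did not overlap, with MET replicates 5 and 6 well above the rest. Its log2 fold change was 0.45 ± 0.12 (FDR = 0.084 by edgeR over 12 libraries and 0.180 over 10 samples).

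The other OST genes were not called by edgeR over 12 libraries, and DESeq2 over 10 samples called OSTC (FDR = 0.045) and DDOST (FDR = 0.068) higher. OSTC, another subunit of the STT3A form, had 86.8 ± 21.5 CPM in CON and 143.9 ± 36.8 CPM in MET (log2 0.69 ± 0.21, FDR = 0.103), and DDOST, a core subunit, had 100.2 ± 11.6 and 150.6 ± 42.3 CPM (log2 0.54 ± 0.17, FDR = 0.107). RPN2 and STT3A had log2 fold changes of 0.34 ± 0.17 and 0.38 ± 0.20. OST4, the smallest subunit, had one of 0.14 ± 0.10. STT3B was at −0.05 ± 0.17. The exons of OST4 overlap those of AGBL5 on the opposite strand over 30.3% of their length, those of RPN2 overlap MROH8 over 5.82% and those of SSR3 overlap KCNAB1 over 1.21%. Per the file headers the counting used strand.

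**Figure D2:**
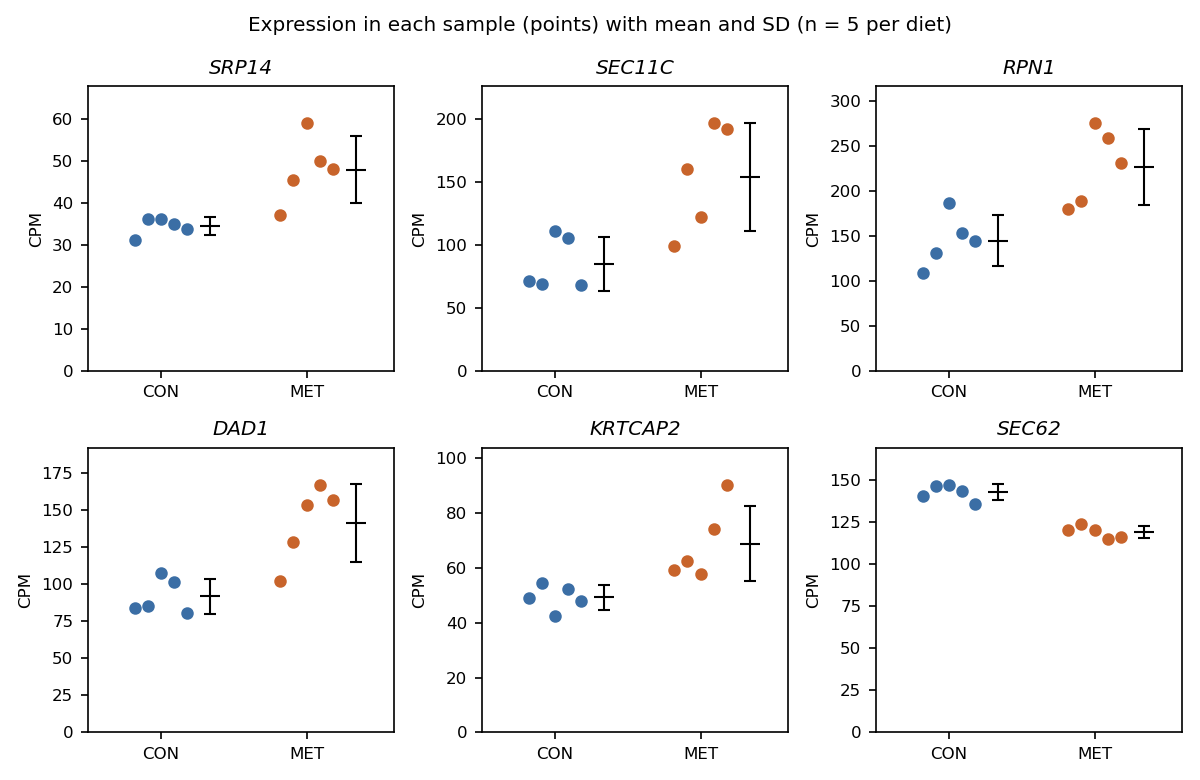
CPM (vertical axes, starting at 0) of 6 genes in each of the 5 CON and 5 MET samples (points, in replicate order), with the mean and SD beside them. SRP14, KRTCAP2 and SEC62 are the genes whose diets do not overlap, and SEC62, at 142.5 CPM in CON and 118.8 CPM in MET, is the one that is lower in MET.

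Within a diet the calves differed as well. The summed level of the 31 genes was 2427, 2854, 3589, 3004 and 2699 CPM in the CON samples and 2788, 3489, 4306, 4307 and 3993 CPM in the MET samples. CON replicate 3 was above MET replicate 2, and MET replicates 1 and 3 were below 3 of the 5 CON samples. CON replicate 3 was the highest CON sample for 25 of the 31 genes, though the lowest for KRTCAP2 (42.5 CPM) and SEC11A (56.6 CPM), and MET replicates 1 and 3 were the lowest MET sample for 26. For 10 genes (SRP19, SEC61B, SEC61G, SSR2, SPCS1, SEC11C, RPN1, DAD1, OST4 and OSTC), 4 of 5 MET samples lay above every CON sample, and in all 10 the remaining sample was MET replicates 1 and 3. Counted against the CON mean of each gene, 30 genes were higher in MET replicate 4, 28 in replicate 5, 26 in replicate 2 and 25 in replicate 6, whereas 13 were higher in MET replicates 1 and 3. In CON the same count was 27 in replicate 3, 24 in replicate 5, 9 in replicate 2, 8 in replicate 6 and 2 in replicates 1 and 4. The gene counts in this paragraph were not taken over all tested genes, so they have no background share to be read against.

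**Figure D3:**
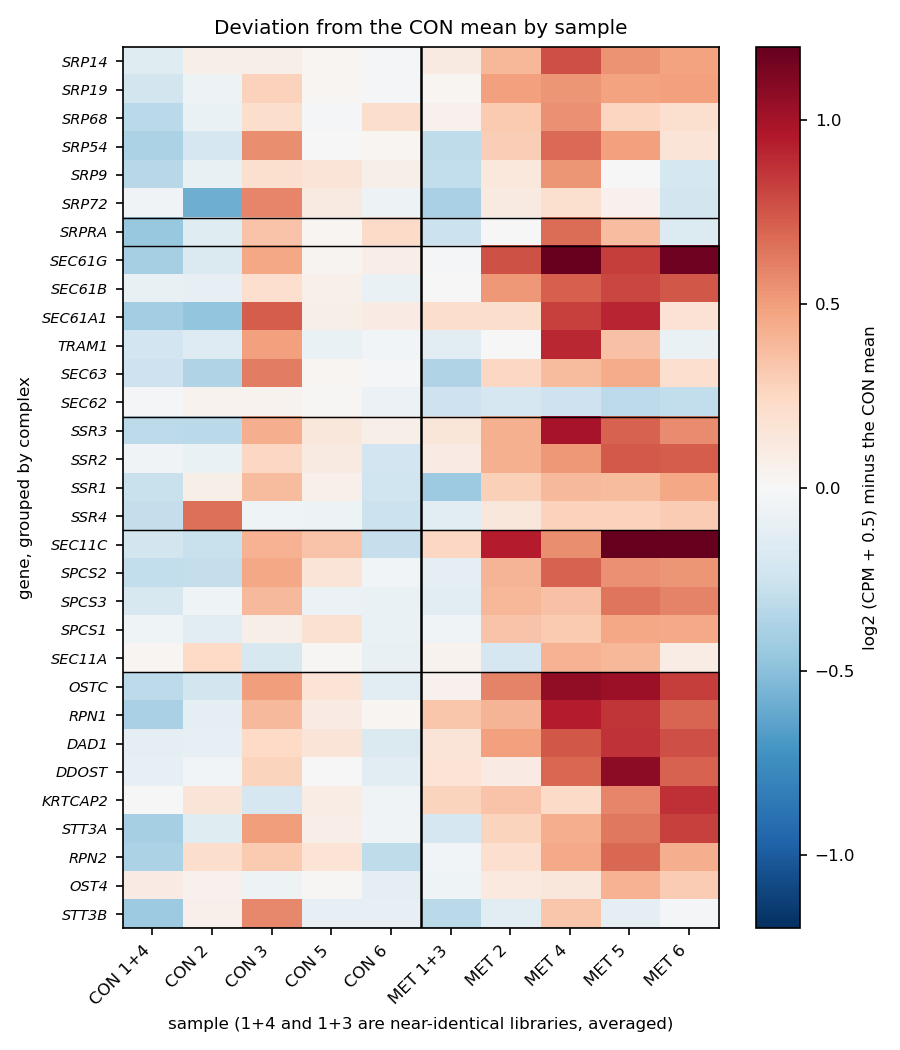
Log2 (CPM + 0.5) of each gene (vertical axis, grouped by complex) in each sample (horizontal axis), as the difference from the CON mean of that gene, red above and blue below. MET replicates 1 and 3 are close to the CON mean with a median of −0.03, the other MET samples have medians from 0.30 to 0.54, and CON replicate 3 has one of 0.35.

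The outcome without the samples that stood apart was computed after their values had been seen. With MET replicates 1 and 3 left out of the 10 samples, the median log2 fold change of the 31 genes was 0.50, and SEC61B, SEC61G and DAD1 passed an FDR of 0.10 by edgeR, as did 39 genes in all. With CON replicates 1 and 4 left out, the median was 0.31 and none passed. Leaving out CON replicate 3 alone from the 12 libraries gave a median of 0.42 and 6 of the 31 called higher, with 284 of 13294 genes called in either direction.

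Short genes were higher in MET across the whole table, and several of the 31 genes are short. Over all 1037 tested genes with under 1000 bases of exon, 75.9% had a positive log2 fold change, with a median of 0.20, compared with −0.02 for the longer ones. Of the 31 genes, 9 are under 1000 bases, SRP14, SEC11C and KRTCAP2 among them, and their median was 0.44. The 22 longer ones, which include RPN1 and DAD1, had a median of 0.31. After removal of each library's trend on exon length, the medians were 0.22 for the 9 short genes and 0.28 for the 22 longer ones, and 0.27 over all 31. RPN1 remained called over 12 libraries, with a log2 fold change of 0.63 and an FDR of 0.091 by edgeR. Over 10 samples with this correction its FDR was 0.226, and no gene of the table was called. In the corrected fit over 12 libraries, SEC11C had 0.62 (FDR = 0.151), DAD1 0.48 (FDR = 0.125), SRP14 0.28 (FDR = 0.215) and KRTCAP2 0.21 (FDR = 0.246). SPCS1 went from 0.27 to 0.09 and SEC11A from 0.14 to 0.02. For OST4, SSR4 and SRP9 the sign turned, to −0.08, −0.03 and −0.01, and STT3B went to 0.01. The part of gene length in the difference between the diets was not tested beyond this fit.

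**Figure D4:**
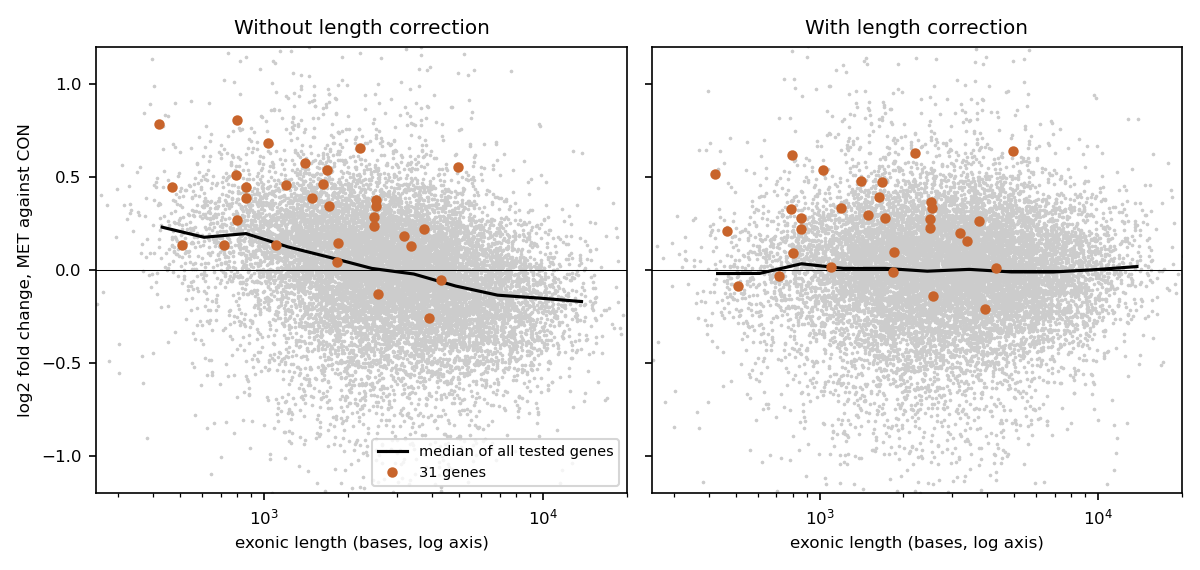
Log2 fold change of MET against CON (vertical axes) against exon length in bases (log axes), before (left) and after (right) the length trend was removed, over 12 libraries. Grey points are the tested genes within the range drawn, the line is their median in bins of length, and orange points are the 31 genes, whose median was 0.35 on the left and 0.27 on the right.

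A pair of the complexes have a choice of catalytic subunit, and the ratio of the alternatives within a library needs no scaling between libraries. A library's trend on exon length does not cancel in such a ratio, and the ratios were not corrected for it. Exon lengths were 4305 bases for STT3B, 2511 for STT3A, 799 for SEC11C and 1099 for SEC11A. STT3A serves chains during translocation and STT3B also glycosylates sites that were skipped. Per kilobase of exon, the ratio of STT3B to STT3A was 0.335, 0.399, 0.364, 0.304 and 0.331 in the CON samples and 0.316, 0.261, 0.320, 0.205 and 0.192 in the MET samples. Of the MET samples, 3 of 5 lay below every CON sample. The geometric means were 0.345 and 0.253, −0.45 apart on the log2 scale (two-sided exact permutation p = 0.0317 over the 252 arrangements of the 10 samples, where the smallest possible is 0.00794, and 0.0635 after Benjamini-Hochberg adjustment over 2 ratios). Without CON replicates 1 and 4, 2, 3 or 6 the exact p was between 0.0556 and 0.0714, and without any other sample between 0.0159 and 0.0397.

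For signal peptidase, the ratio of SEC11C to SEC11A was 1.48, 1.23, 2.71, 2.22 and 1.54 in the CON samples and 2.03, 3.91, 1.94, 3.16 and 3.83 in the MET samples. The diets overlapped, with CON replicates 3 and 5 inside the MET range. The geometric means were 1.76 and 2.85, 0.69 apart on the log2 scale (two-sided exact permutation p = 0.0635 over 10 samples, and 0.0635 after adjustment). This ratio was chosen knowing that SEC11C was among the changed genes of the study, so its p-value is not an independent test. Over all 12 libraries the exact permutation p was 0.0390, but there the near-identical libraries are taken as separate samples.

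Other genes of the secretory route were described by 7 lists from general knowledge, 110 tested genes in all. Of these, 84 had a positive log2 fold change (49.6% of all tested genes), 11 were called higher at an FDR of at most 0.10 over 12 libraries (2.09% of all) and none was called lower (2.32%). Over 10 samples edgeR called none, while at an unadjusted p of at most 0.05 it had 32 higher (7.83% of all) and 2 lower (8.52%). The median over all 110 was 0.18. Called genes were found at the membrane itself, where TMEM258, a further OST subunit, had a log2 fold change of 0.83 ± 0.18 (FDR = 0.057 by edgeR), HM13, the signal peptide peptidase that clears spent signal peptides, one of 0.67 ± 0.16 (FDR = 0.069), and NCLN, part of the translocon for multipass proteins, one of 0.57 ± 0.13 (FDR = 0.060).

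The calls by list below are over 12 libraries, where 2.09% of all tested genes were called higher, and over 10 samples edgeR called none. Upstream of OST, 23 genes of dolichol-linked oligosaccharide synthesis had a median of 0.12, and 4 were called higher. These were the glucosyl donor synthase ALG5 (0.63 ± 0.17), the mannosyltransferases ALG12 (0.54 ± 0.12) and ALG3 (0.51 ± 0.13), and DPM2 (0.54 ± 0.12), a regulatory subunit of dolichol-phosphate mannose synthase. Downstream of OST, none of 13 genes of N-glycan trimming and the calnexin cycle was called, with a median of 0.13. Of 20 genes of COPII vesicles, which carry cargo out of the ER, PREB, the exchange factor that starts coat assembly (0.65 ± 0.17), and TMED9, a cargo receptor (0.52 ± 0.15), were called higher, with a median of 0.13 over the list. None of 8 genes of tail-anchored insertion was called (median 0.12), and NCLN was the 1 called gene of the 14 for multipass translocation and the ER membrane complex (median 0.16). With the length correction the medians were 0.07 for tail-anchored insertion, 0.06 for multipass translocation and the ER membrane complex, and 0.23 for COPII.

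The 26 tested genes of ER chaperones and the unfolded protein response had the highest median of the 7 lists, 0.45, above that of the 31 genes. Only DDIT3, a transcription factor induced by ER stress (0.52 ± 0.10, FDR = 0.045 by edgeR), and FKBP11, an ER prolyl isomerase (1.02 ± 0.27, FDR = 0.080), were called over 12 libraries. The share of all tested genes called higher was 2.09%. Over 10 samples neither was called (FDR = 0.156 and 0.174 by edgeR). HSPA5, the main ER chaperone, which was chosen after its values had been seen, stood at 397, 494, 1776, 1060 and 492 CPM in the CON samples and at 631, 1628, 1526, 1231 and 1422 CPM in the MET samples. CON replicate 3 was the highest CON sample and MET replicates 1 and 3 the lowest MET sample, as for most of the 31 genes. HSPA5 did not pass the test (log2 0.61 ± 0.39, FDR = 0.398).

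**Figure D5:**
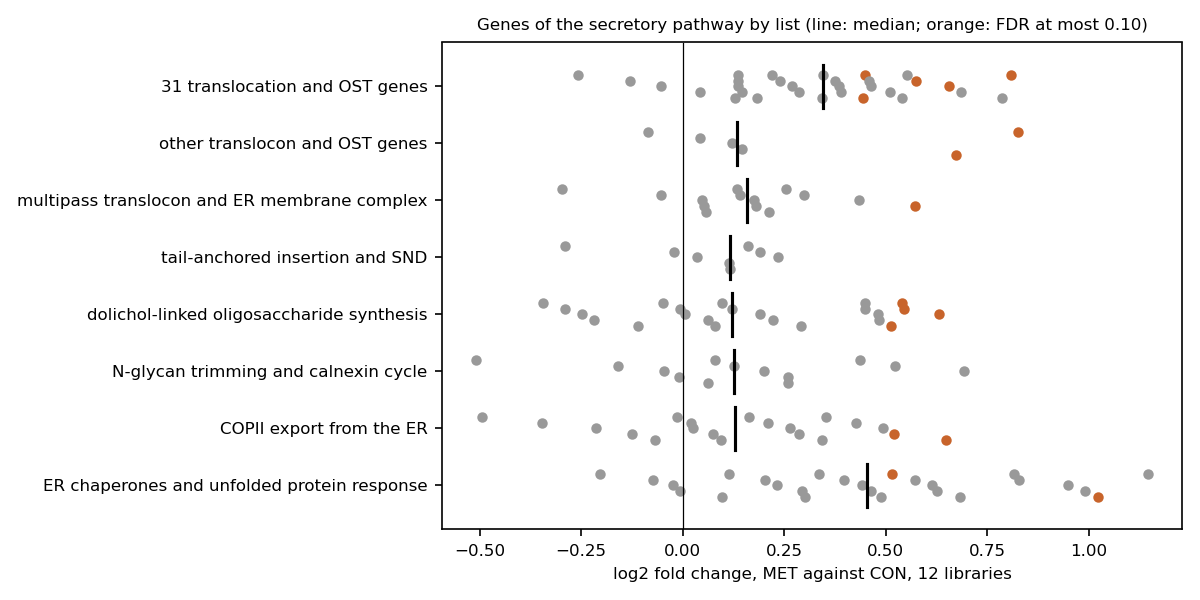
Log2 fold change of MET against CON over 12 libraries (horizontal axis) for the 31 genes and for each of 7 other lists of the secretory route. Points are genes, orange where the FDR was at most 0.10, and vertical lines are list medians, which were 0.35 for the 31 genes, 0.45 for ER chaperones and 0.12 to 0.16 for the other lists.

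Markers of the cell types of liver were measured in the same samples. In bulk tissue, fewer cells of a type and less RNA per cell cannot be told apart. The 10 hepatocyte markers summed to 192846 to 246572 CPM in CON and 153426 to 244902 CPM in MET, and 6 of the 10 had a negative log2 fold change. Over 12 libraries APOB was called lower (−0.38 ± 0.11, FDR = 0.086 by edgeR), as were 2.32% of all tested genes. Over 10 samples its FDR was 0.189. ALB, albumin, had 62223 ± 13404 CPM in CON and 39451 ± 8761 CPM in MET (log2 −0.65 ± 0.20). Its FDR by edgeR was 0.107 over 12 libraries and 0.238 over 10 samples. CON replicate 3 was the lowest CON sample for ALB (39180 CPM), TF (42334 CPM) and SERPINA1 (7445 CPM), but the highest for APOB (1337 CPM). The markers with a positive log2 fold change were TTR (0.07), FGA (0.06), FGB (0.03) and FGG (0.07).

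All 8 Kupffer cell and macrophage markers had a positive log2 fold change (49.6% of all tested genes). Over 12 libraries C1QC (0.41 ± 0.09, FDR = 0.057 by edgeR) and C1QB (0.39 ± 0.11, FDR = 0.085) were called higher (2.09% of all). Over 10 samples edgeR called none of the 8 (lowest FDR 0.175). The 8 markers summed to 1211 to 1632 CPM in CON and 1432 to 1918 CPM in MET. In CON the lowest and highest sums were those of replicates 1 and 4 (1211 CPM) and of replicate 3 (1632 CPM), which were also the lowest (2427 CPM) and highest (3589 CPM) for the sum of the 31 genes. In MET the lowest sum was that of replicate 5 (1432 CPM), where the 31 genes summed to 4307 CPM, and MET replicates 1 and 3, the lowest MET sample for the 31 genes (2788 CPM), had 1693 CPM. Markers of plasma and B cells, which are rich in secretory machinery, summed to 8.80 to 20.6 CPM in CON and 11.2 to 15.5 CPM in MET, and 2 of 8 passed the filter. Of 8 stellate cell and fibroblast markers 7 had a negative log2 fold change, and LUM was called lower over 12 libraries (FDR = 0.098 by edgeR). Of 6 cholangiocyte markers tested 5 were negative, and CFTR was called lower over 12 libraries (FDR = 0.089 by edgeR). The share of all tested genes called lower was 2.32%. Over 10 samples edgeR called none of either list (lowest FDR 0.211 and 0.195). Endothelial markers were split 4 to 4 with none called. T and NK cell markers were positive in 6 of 7 and summed to 24.1 to 37.3 CPM in CON and 26.9 to 49.9 CPM in MET, and the 2 erythroid markers tested had opposite signs over 12 libraries and were both negative over 10 samples, with sums of all 8 from 7.64 to 962.1 CPM in CON and 57.1 to 460.5 CPM in MET. The part of cell composition in the difference of the 31 genes was not tested.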

How the data were processed

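Liver RNA of 12 calves (6 CON, 6 MET) was sequenced on 1 lane with a stranded mRNA kit. Per the labels, adaptors were trimmed with Trimmomatic, and the submitters' processing notes name FastQC 0.11.15, STAR 2.5.3a and Subread 1.5.2. The authors deposited raw counts of reads per gene, by Entrez ID, on UMD 3.1.1. Per the file headers, reads were assigned by strand to exons, and reads matching several places or genes were not counted. Symbols came from a RefSeq table of a later assembly (25105 of 30336 IDs), from which no coordinate was taken. NOMO1 and ERN1, of the pathway lists, and SRPRB were not matched. No protein, promoter or transcript sequence was used here.

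Genes were filtered with edgeR's default (minimum count 10, minimum total 15), normalized by TMM, and compared with edgeR 4.0.16's quasi-likelihood test in R 4.3.3 with diet as the only term, over 12 libraries (13212 genes) and over 10 samples (13242 genes). Adjustment was by Benjamini-Hochberg over all tested genes, with a threshold of 0.10. The SE of a log2 fold change is its size divided by the square root of the F statistic. P-values measure only the spread between these samples, and floors of 3 reads cover counting error only. CPM of a near-identical pair were averaged. Ratios were taken per kilobase of exon and compared by exact two-sided permutation. Alternatives were other normalizations and filters, DESeq2 1.42.0, voom of limma 3.58.1, robust estimation, a length correction (loess, span 0.5), a replicate block and left-out libraries.

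The genes, the lists and the SEC11C to SEC11A ratio were chosen with earlier results of these data known. Values in every sample are given for genes with an FDR of at most 0.10 over 12 libraries or whose 10 samples do not overlap, and called genes of the other lists are named, at most 4 a list. ALB, the other hepatocyte markers named, HSPA5 and the called cell type markers were chosen for naming after their values were seen. The quasi-likelihood, length-corrected, voom and DESeq2 fits were tested on simulated counts with known changes, in which DESeq2 called more unchanged genes than edgeR. Tables of the authors' own comparisons were not used.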

Additional observations from a re-analysis of the deposited data

Results flagged for a closer look

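For each of the 31 genes and both ratios, the samples of a diet were searched for one that stood apart from the other 4 (a gap of more than 0.71 of the diet's range by Dixon's criterion). Of 66 such sets 6 met it, and chance gives about 1 in 20. In MET, replicates 1 and 3, counted as 1 sample, stood below the rest for SRP19 (33.6 CPM, others 46.5 to 48.1), SSR1 (143.9 CPM, others 237.5 to 269.7) and SPCS1 (62.2 CPM, others 80.2 to 88.8). In CON, replicate 3 stood above the rest for TRAM1 (198.8 CPM, others 120.6 to 137.8) and SPCS3 (18.3 CPM, others 12.1 to 13.3), and replicate 2 for SSR4 (340.3 CPM, others 177.0 to 207.5).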

How the results depend on the processing

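The count of genes called higher, 5 over 12 libraries, was 0 with library size only, 3 without a filter, 12 with DESeq2, 1 with the length correction and 0 with a replicate block. In the whole table these settings called 107, 238, 1314, 253 and 6 genes. Over 10 samples it was 0 with edgeR, 0 with voom, 0 with the length correction, 0 with MET replicate 6 left out, 12 with DESeq2 (639 genes called in all), 3 with MET replicates 1 and 3 left out and 0 with CON replicates 1 and 4 left out, the last pair of settings being chosen after the data were seen. With each of the 12 libraries left out it ran from 0 to 9. In brackets are the genes called in the whole table in either direction. It was 0 without CON replicate 1, CON replicate 4, MET replicate 5 (340) or MET replicate 6 (216). It was 1 without CON replicate 6 (376) and 2 without MET replicate 4 (295). It was 3 without CON replicate 5 (459) or MET replicate 2 (349), and 9 without MET replicate 3 (332). The count called lower went from 0 to 1 with upper quartile scaling, DESeq2, voom and DESeq2 over 10 samples. Without CON replicate 1 or 4, 26 and 35 genes were called in the whole table, against 583. The causes were not tested.

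The median log2 fold change of the 31 genes kept its sign in all 29 alternatives. Signs turned for 5 genes near 0. SRP9 went from 0.04 to −0.0082 with the length correction, −0.0046 with it over 10 samples, −0.031 with CON replicates 1 and 4 left out of the 10 samples, and between −0.092 and 0.110 with 1 library left out. SSR4 went to −0.033 and −0.039 and OST4 to −0.084 and −0.037 with the length correction over 12 libraries and 10 samples. STT3B went to 0.013 with that correction and between −0.152 and 0.108 with 1 library left out, and SRP72 between −0.226 and 0.015. The log2 difference of the STT3B to STT3A ratio ran from −0.53 to −0.35 with 1 sample left out. That of SEC11C to SEC11A was 0.65 over 12 libraries and ran from 0.57 to 0.85 with 1 sample left out, passing 0.05 without CON replicate 3, MET replicates 1 and 3 or MET replicate 4. Under the other scalings the median log2 fold change of all genes, −0.003 with TMM, ran from −0.02 to 0.03.

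CON and MET replicates share only numbers. The deviations of same-numbered libraries correlated between −0.19 and 0.15, and 0 of 6 matched their own number best. The best match of CON replicate 1 was MET replicate 3, which was near-identical to MET replicate 1. With only numbers shared, the replicate block (6 genes called in all, 0 of the 31) has no basis in the design. With that block, sign flips of the ratios gave log2 differences of −0.39 for STT3B to STT3A (exact p = 0.0313) and 0.65 for SEC11C to SEC11A (exact p = 0.0938). The effect of GC content was not examined, since no genome sequence was used here.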
